A study of Mus musculus with 6 samples.

Results

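The 100 most abundant long noncoding RNA (lncRNA) genes of leptotene/zygotene (L/Z) spermatocytes were examined. L/Z spermatocytes are the germ cells that have just entered meiotic prophase. The genes were selected on their read counts: of 54532 genes in the count table, 9677 carried a noncoding biotype (lincRNA, antisense, processed_transcript, sense_intronic, bidirectional_promoter_lncRNA and the like), 2805 of these had at least 1 read, and the 100 with the largest sum of reads over all 6 libraries were kept. They held 60731 of the 91339 reads on such genes (66.5%). Abundance is therefore a property of the selection and not a result, whereas the comparison of the genotypes was not used to choose them. Counting reads also favours long genes. The median gene length was 2653 bases among the 100 genes and 1608 bases among all lncRNA genes with a read, and 69 of the 100 would also have been kept after division by length.

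RNA came from cells sorted by flow cytometry from testes of mice at 12 days postpartum (dpp). The 3 control libraries were from males whose genotype is labelled wild type and which the study describes as littermates. The 3 Eef1g-cKO (below also cKO) libraries were from males in which floxed Eef1g is deleted in germ cells by Stra8-GFPCre, a Cre that acts from type A1 spermatogonia onward, which precede the sorted stages. Eef1g codes for eEF1G, part of the complex that delivers aminoacyl-tRNA to the ribosome, and its own level was 219.8 ± 7.34 CPM (counts per 1000000 reads after scaling; SD, n = 3) in control and 136 ± 16.0 in Eef1g-cKO libraries (log2 fold change, abbreviated log2FC, −0.68, SE 0.20, adjusted p = 0.029, edgeR quasi-likelihood). This call was lost in 8 of 19 alternative fits, among them the replicate block and the omission of any one control library, with values from −0.86 to −0.49. The count covers the whole gene, exons outside the deleted part included. Libraries held 763133 to 2617648 reads, and the detection floor of 3 reads corresponded to 1.18 to 4.63 CPM. The shallowest library, Eef1g-cKO replicate 3, had more than 3 reads for 91 of the 100 genes, and the other libraries for 97 to 100. Libraries were made from polyadenylated RNA with an amplification that does not mark strand and without molecular identifiers, so p-values measure the spread between these libraries, and reads of a gene and an overlapping partner cannot be told apart.

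LncRNAs are transcripts that lack a long open reading frame. Some act as RNA, such as Malat1, a nuclear RNA of speckles that binds splicing factors. Others are spliced carriers: their introns are processed into small nucleolar RNAs (snoRNAs), which guide modification of ribosomal RNA, or their exons or introns hold microRNAs, while the spliced remainder is often short lived. Many more start next to, or run across, a protein-coding gene. The testis is known for transcribing an unusually large number of them.

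The reads were concentrated on few genes. Malat1 alone held 20.4% and the top 12 held 56.7% of the reads on the 100 genes, whereas 74 genes had fewer than 500 reads in all 6 libraries together. Per kilobase of gene length the order changed: mean levels in control were 299.8 RPKM (CPM divided by gene length in kilobases) for Ndufb1-ps, 242 for Gm10076, 178 for Gm12031 and 163 for Malat1.

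**Figure D1:**
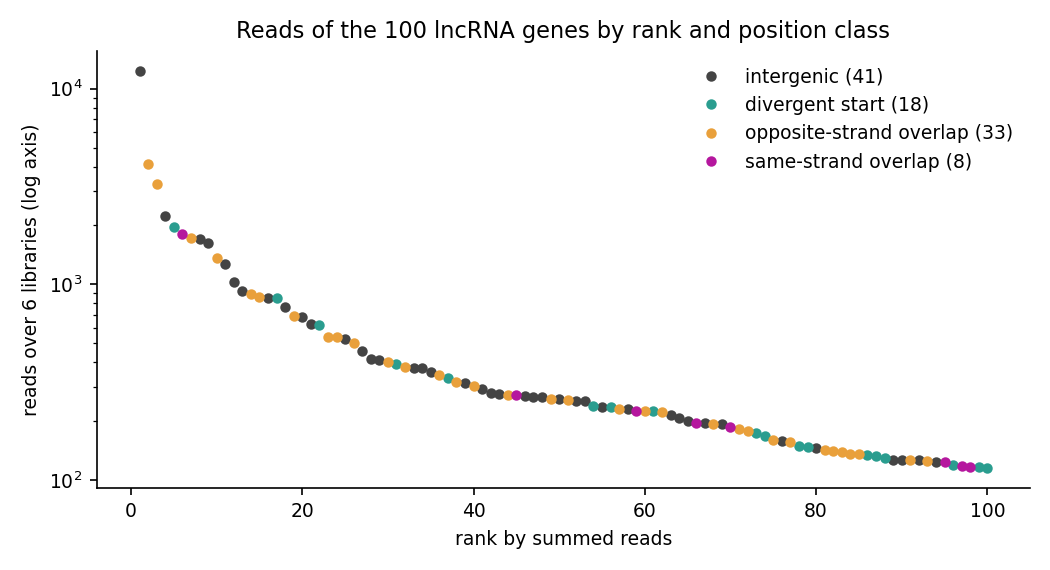
Reads summed over 6 libraries (log axis) of each of the 100 genes, by rank, coloured by position relative to protein-coding genes (number of genes in brackets). Malat1 at 12369 reads stands above the second gene, Cct6a, at 4138, and the curve ends at 115 reads.

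To ask whether these RNAs respond to loss of eEF1G, all genes of the table were tested between the genotypes. Of the 100 genes, 99 passed the filter on low counts. Higher in Eef1g-cKO were Snhg1, Gas5, Mir17hg, Scml1, Tslrn1, 4933427D06Rik, Gm29107 and Gm17066. Lower were Rab26os, 2810013P06Rik and Gm12031. In counts, 8 of 99 were higher (8.08%), where 7.8% of all 8513 tested genes were higher, and 3 of 99 were lower (3.03%), where 6.01% of all tested genes were lower (edgeR quasi-likelihood, adjusted p under 0.05 by Benjamini-Hochberg over the whole table). With the additional limit of an absolute log2FC over 1, which the study uses, 7 were higher (7.07%, against 3.42% of all genes) and 3 were lower (3.03%, against 4.96%). The share of higher genes was near the background without the fold limit and above it with the limit, and this difference in share was not tested. Before adjustment, 13 had p under 0.05 upward (13.1%, against 14.3% of all genes) and 12 downward (12.1%, against 13.2%), both near the background. The CPM ranges of both genotypes were fully apart for 34 of the 99 genes, 17 in each direction (34.3%, against 34.5% of all tested genes). The median log2FC was 0.01 over the 99 genes and −0.05 over all tested genes. When each library was corrected for a trend with transcript GC content, 5 genes were higher and 3 were lower, and the median became −0.11. Of the 8 higher genes, Snhg1, Gas5, 4933427D06Rik and Scml1 still passed then, joined by Gm26917, and of the 3 lower genes Rab26os and Gm12031 did, joined by Tug1. Leaving out control replicate 3 left 5 higher genes, and leaving out control replicate 1 left 1 lower gene, Gm12031.

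**Figure D2:**
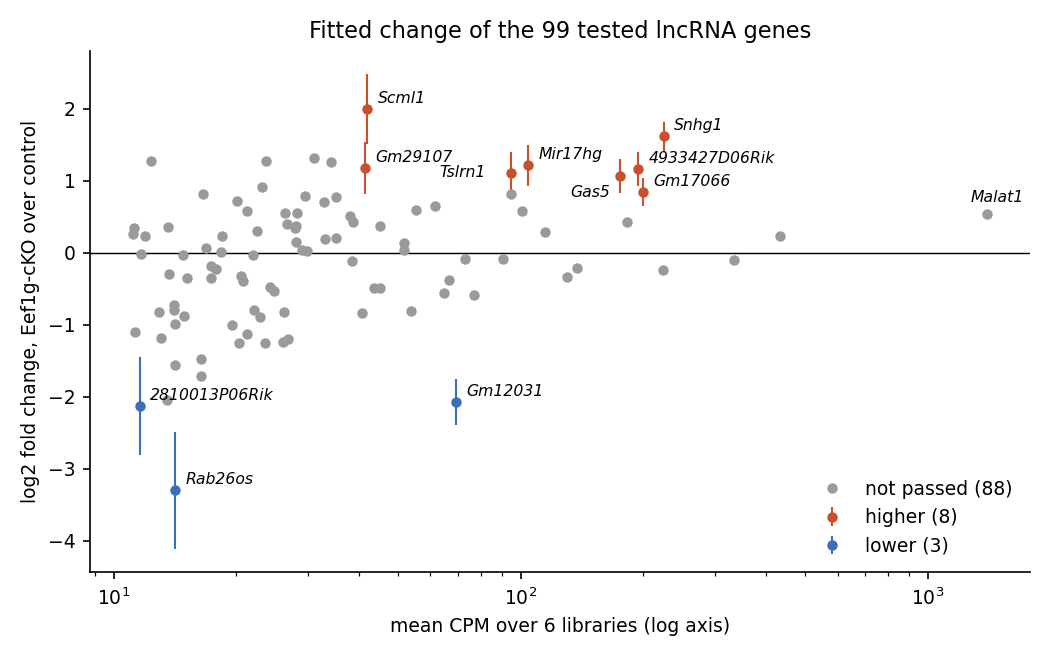
Log2 fold change of Eef1g-cKO over control against the mean CPM over 6 libraries (log axis) for the 99 tested genes. Red points passed the test as higher (8) and blue points as lower (3), with SE bars, and grey points (88) did not pass. The higher genes lie to the right of 40 CPM, and 2 of the 3 lower genes lie under 20 CPM.

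The 50 genes with most reads included all 8 higher genes and 1 lower gene, with a median log2FC of 0.23. The 50 with fewer reads included no higher gene and 2 lower genes, with a median of −0.33, and before adjustment 1 of them had p under 0.05 upward and 8 downward (2.0% and 16.0%, against 14.3% and 13.2% of all genes). A gene of low rank can enter through the genotype in which it is high, so nothing is read from the difference between these ranks. Beyond the 100, 89 further lncRNA genes passed the filter, of which 1 was higher and 9 were lower (1.12% and 10.1%, against 7.8% and 6.01% of all tested genes). Their median control level was 9.42 CPM, not far above the floor of 4.63 CPM in Eef1g-cKO replicate 3.

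The share of all reads that fell on the 100 genes was 0.625% ± 0.0111 in control and 0.657% ± 0.0192 in Eef1g-cKO libraries (SD, n = 3). This difference was not separable from the spread between libraries (p = 0.2 by a 2-sided exact permutation test, for which 3 against 3 can give no less than 0.1). Without Malat1 the shares were 0.506% ± 0.0176 and 0.506% ± 0.0289 (exact permutation p = 1). Out of the reads on coding and lncRNA genes only, the shares of the 100 genes were 0.732% ± 0.00845 and 0.757% ± 0.0533 (exact permutation p = 0.8). Without the genes that overlap a coding gene the shares were 0.387% ± 0.00320 and 0.428% ± 0.0342, with every cKO library above every control library (exact permutation p = 0.1, the smallest that 3 against 3 can give). This set still holds Malat1, and its share without Malat1 was not computed. Its highest value was 0.467% in cKO replicate 3, against 0.402% and 0.416% in cKO replicates 1 and 2. All lncRNA genes together moved the other way, with 1.006% ± 0.0160 and 0.915% ± 0.0276 and again no overlap (exact permutation p = 0.1).

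Malat1 (ENSMUSG00000092341, chr19:5795690-5802672, GRCm38, minus strand, intergenic) had 1149, 1214 and 1061 CPM in control replicates 1 to 3 and 1270, 1416 and 2275 CPM in Eef1g-cKO replicates 1 to 3. Every Eef1g-cKO library lay above every control library, but Eef1g-cKO replicate 3 carried much of the difference. The log2FC was 0.53 (SE 0.18) with an adjusted p of 0.061, which did not pass; it ran from 0.27 to 0.72 over the alternative fits, and passed in 3 of 19. Neat1, the RNA scaffold of paraspeckles, had 65 reads in all and was not tested.

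The smallest adjusted p among the 100 genes belonged to the snoRNA host Snhg1 (ENSMUSG00000108414, chr19:8723475-8726443, plus strand). Its CPM was 99.99, 117.6 and 112.0 in control replicates 1 to 3, against 311, 292 and 414 in cKO replicates 1 to 3. All Eef1g-cKO libraries stood well above all control libraries, with means of 339 ± 65.5 and 109.8 ± 8.99 CPM. This gave a log2FC of 1.62 (SE 0.20, adjusted p = 4.2e-05), which stayed between 1.30 and 1.73 and passed in all 19 alternative fits. Gas5 (ENSMUSG00000053332, chr1:161034422-161038539, plus strand), named for its accumulation in growth-arrested cells, had 115.3, 115.5 and 112.0 CPM in control and 277, 283 and 148 CPM in cKO libraries. The control values were nearly identical, and cKO replicate 3 was the lowest of its group. The log2FC was 1.06 (SE 0.24, adjusted p = 0.0058) and passed in all 19 alternative fits, with values from 0.81 to 1.33.

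Snhg1 contains 8 and Gas5 contains 9 snoRNA genes on the same strand in GENCODE M21. None of these 17 snoRNA genes had a read in any library. The annotated exons of Snhg1 cover its whole span of 2969 bases, so a read on a snoRNA there also lies on a host exon. How reads over 2 such genes were counted is not known. The zeros therefore do not show which part of the hosts the reads came from. One box C/D snoRNA of each host is shown, because these sequences are what the host introns are known to release. The capitals mark the C box letters (TGATGA) and the D box letters (CTGA), found by letter match within the GENCODE transcript. Snord47 lies at chr1:161038082-161038158 within Gas5 and Gm25855 at chr19:8723993-8724064 within Snhg1, both on the plus strand.
Snord47: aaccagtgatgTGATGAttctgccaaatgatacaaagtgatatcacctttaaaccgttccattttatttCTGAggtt
Gm25855: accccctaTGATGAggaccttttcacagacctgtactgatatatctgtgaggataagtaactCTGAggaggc
By this match, 5 of the 8 snoRNAs of Snhg1 and 7 of the 9 of Gas5 held both boxes.

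In all, 14 of the 100 genes contain an annotated snoRNA gene, a property that the selection did not use. Among these 14 genes, all of them tested, 2 were higher (Snhg1 and Gas5, 14.3%), 1 was lower (Rab26os, 7.14%) and 11 did not pass. Their median log2FC was 0.11. The other 85 tested genes gave 6 higher and 2 lower (7.06% and 2.35%), with a median of −0.03. Across all tested genes, 7.8% were higher and 6.01% lower. With so few hosts called, nothing is read from the difference. Rab26os (ENSMUSG00000093565, chr17:24528248-24528744, plus strand) was the host that passed as lower. It entered the 100 genes through the control libraries, with 117 of its 126 reads there, so its direction is not independent of the selection. It had 41.2, 12.1 and 22.4 CPM in control and 2.43, 0.784 and 6.18 CPM in cKO libraries, or 54, 23 and 40 reads against 3, 2 and 4. The groups did not overlap, but control replicate 1 held 48.5% of the summed CPM. The log2FC was −3.30 (SE 0.81, adjusted p = 0.011), and the call was lost without control replicate 1.

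The other hosts gave values without a call. Zfas1, whose introns hold 3 snoRNAs, had 21.4 to 36.9 CPM in control and 26.3 to 46.1 CPM in cKO libraries (log2FC 0.18, adjusted p = 0.82). Snhg8 had 36.2 to 51.9 CPM and 36.4 to 82.7 CPM (0.60, adjusted p = 0.29), and Snhg6 had a log2FC of 0.04 (adjusted p = 0.96). Snhg5 stood at −0.47 (adjusted p = 0.59), 1110038B12Rik at 0.04 (adjusted p = 0.97) and 2410006H16Rik at 0.58 (adjusted p = 0.48), all by the edgeR test. Epb41l4aos had 29.0, 38.3 and 42.5 CPM in control and 11.3, 18.04 and 16.99 CPM in cKO libraries. These values did not overlap either, yet the log2FC of −1.24 (SE 0.45) had an adjusted p of 0.078. Snhg14, the long host of the Prader-Willi region with 208 snoRNA genes, had 0.71 (adjusted p = 0.41), Gm15832 had −1.18 (adjusted p = 0.26), and Snhg9, which shares 14 exon bases with the ribosomal protein gene Rps2, had −0.35 (adjusted p = 0.76). Of the 19 genes of a snoRNA host list that were in the table, 12 were tested, and the only one outside the 100 genes to pass was Snhg4, which was lower (log2FC −3.16, adjusted p = 0.010).

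**Figure D3:**
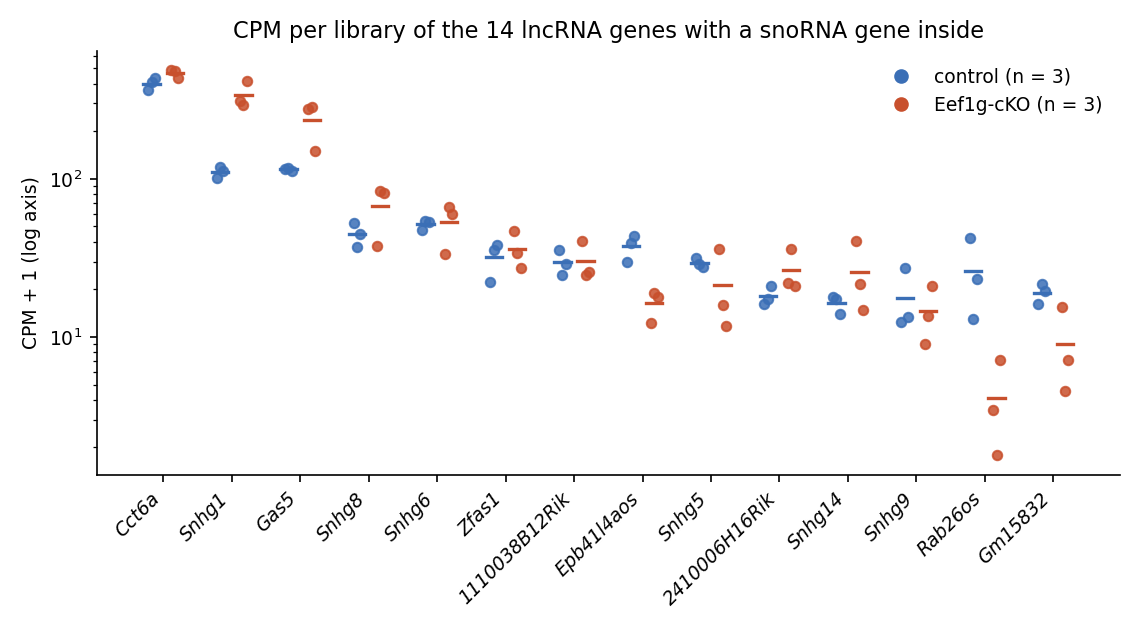
CPM + 1 (log axis) of the 14 genes that contain a snoRNA gene, one point per library and a bar for the mean of each group (3 control, blue, and 3 Eef1g-cKO, red), ordered by summed reads. Snhg1 and Gas5 separate upward and Rab26os downward, while most of the other hosts overlap between the groups.

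Many snoRNA hosts are known to begin transcription at a C followed by a run of pyrimidines, as mRNAs of ribosomal proteins do. RefSeq start windows (GRCm38.p6) were found for 64 of the 100 genes, matched by symbol and not by position. The 50 bases before and 50 bases after the annotated start are shown for 4 hosts, 2 that were higher, 1 that was lower and 1 that did not pass, so that the start letters can be set beside their changes. The capitals mark the unbroken run of C or T that begins with a C at the start itself. The windows are chr19:8723437-8723536 (Snhg1), chr1:161035116-161035215 (Gas5, the second of 2 annotated starts), chr17:24528201-24528300 (Rab26os), all on the plus strand, and chr3:123508287-123508386 (Snhg8) on the minus strand.
Snhg1: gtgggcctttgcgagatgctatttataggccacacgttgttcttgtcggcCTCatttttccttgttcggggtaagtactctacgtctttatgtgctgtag
Gas5: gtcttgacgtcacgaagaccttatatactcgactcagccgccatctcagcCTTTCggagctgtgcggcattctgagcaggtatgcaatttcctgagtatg
Rab26os: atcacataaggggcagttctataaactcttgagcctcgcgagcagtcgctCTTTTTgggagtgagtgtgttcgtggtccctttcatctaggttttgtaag
Snhg8: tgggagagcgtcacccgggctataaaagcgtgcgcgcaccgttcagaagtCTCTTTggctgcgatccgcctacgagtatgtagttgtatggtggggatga
A run of at least 5 such letters was present at an annotated start of 4 of the 11 snoRNA-containing genes with a window (Gas5, Rab26os, Snhg8 and 1110038B12Rik). It was also present in 1 of the 53 other genes with a window (2810001G20Rik). Counted by window, since some genes have more than 1, it stood at 5 of the 72 windows of these genes (6.94%). Among all 32851 RefSeq windows the share was 2.51%. Snhg1 had a run of 3 and 2410006H16Rik a run of 4. The 4 windows shown all have a C at the annotated start, but Cct6a, Snhg5, Snhg9, Snhg14, Zfas1 and the first Gas5 start had no such run. The Snhg14 window (chr7:60450128-60450227) lies outside the span counted here (chr7:59307924-59975759), so it does not describe the start of that entry. The 4 hosts with the run included 1 higher gene, 1 lower gene and 2 that did not pass.

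Mir17hg (ENSMUSG00000089726, chr14:115042879-115046727, plus strand) carries the miR-17-92 cluster, microRNAs known for promoting proliferation. Its CPM was 68.7, 73.0 and 45.3 in control and 103.5, 139 and 195 in Eef1g-cKO libraries. No Eef1g-cKO library fell to the highest control library. The log2FC was 1.21 (SE 0.29, adjusted p = 0.0088), and the call was lost without control replicate 3 and with the GC correction, where the adjusted p was 0.058. The count table holds the host transcript and not the mature microRNAs, so it does not say whether their amounts changed. The RefSeq mature sequences that lie inside the gene are given below for the arm that is usually named for each hairpin, as these are the products of the host, with the seed (bases 2 to 8) in capitals.
mmu-miR-17-5p: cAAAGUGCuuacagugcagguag
mmu-miR-20a-5p: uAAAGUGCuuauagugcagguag
mmu-miR-18a-5p: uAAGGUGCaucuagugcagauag
mmu-miR-19a-3p: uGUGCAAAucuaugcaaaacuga
mmu-miR-19b-3p: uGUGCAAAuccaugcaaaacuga
mmu-miR-92a-3p: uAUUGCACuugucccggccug
The 6 sequences share 4 seeds: miR-17-5p with miR-20a-5p, miR-19a-3p with miR-19b-3p, and one each for miR-18a-5p and miR-92a-3p. The other microRNA hosts among the 100 genes did not pass. Dleu2, host of the growth-restraining miR-15a and miR-16-1, had 28.3 to 58.0 CPM in control and 62.7 to 97.3 CPM in cKO libraries, values that did not overlap (log2FC 0.66, adjusted p = 0.23). Mir22hg had a log2FC of −0.39 (adjusted p = 0.68) and Mir9-3hg of −0.01 (adjusted p = 0.99). Of the 10 microRNA hosts of the list found in the table, these 4 were the ones that could be tested.

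Of 5 X-linked genes, 2 were higher (40.0%, where 7.8% of all tested genes were higher), too few genes to read a share from. X-linked genes outside the 100 were not counted separately. The X chromosome is known to be silenced at pachytene, which follows the stages sorted here. Scml1 (ENSMUSG00000086540, chrX:161817734-161819587, minus strand) had 13.7, 24.7 and 10.6 CPM in control and 74.4, 28.2 and 100.4 CPM in cKO libraries. Eef1g-cKO replicate 2 was close to control replicate 2, while the other Eef1g-cKO libraries were far above. The log2FC was 2.00 (SE 0.48, adjusted p = 0.0094), the highest among the 100 genes, and the call was lost without control replicate 3. The count table gives it as lincRNA, but RefSeq annotates Scml1 as a protein-coding gene of the Polycomb-related SCML family, and its RefSeq span (chrX:161814693-161832122) also takes in all 10747 bases of the neighbouring lincRNA Gm15205. Gm15205 had 27.5, 16.8 and 8.96 CPM in control and 34.8, 38.4 and 60.2 CPM in cKO libraries. These values did not overlap, with a log2FC of 1.32 (SE 0.47, adjusted p = 0.072), and RefSeq holds both entries in 1 gene. Tslrn1 (ENSMUSG00000085757, chrX:62510539-62527011), named as a testis-specific lncRNA, had 38.9, 69.8 and 69.4 CPM in control and 107.5, 121.5 and 159 CPM in cKO libraries. The groups did not overlap, and the log2FC was 1.10 (SE 0.29, adjusted p = 0.015), with the call lost under library totals alone, under the GC correction and without control replicate 1. The remaining X-linked genes, 5530601H04Rik and 2810403D21Rik, had log2FC values of 0.34 (adjusted p = 0.75) and −1.56 (adjusted p = 0.19).

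None of 5 RNAs of the X inactivation centre (Xist, Tsix, Jpx, Ftx and Tsx) was among the 100 genes, and none had enough reads to be tested. Firre, an X-linked RNA from outside that centre that was on the same list, was tested but was not among the 100 genes either (log2FC −0.70, adjusted p = 0.70). Of 9 imprinted noncoding RNAs on the list, Kcnq1ot1 and Snhg14 were among the 100. Kcnq1ot1, a 93092-base antisense RNA that silences its imprinted domain, had 85.5, 89.8 and 104.7 CPM in control and 63.9, 112.9 and 84.95 CPM in cKO libraries. These ranges overlapped, and the log2FC was −0.09 (SE 0.28, adjusted p = 0.88). Tug1 had 59.5, 70.3 and 76.1 CPM in control and 27.5, 51.4 and 37.1 CPM in cKO libraries, which did not overlap. Its log2FC was −0.81 (SE 0.33, adjusted p = 0.12), passing in 2 of 19 alternative fits. 2900097C17Rik, the mouse Norad gene, whose RNA binds Pumilio proteins in the cytoplasm, stood at −0.84 (SE 0.39, adjusted p = 0.16).

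Among genes without a known role, 4933427D06Rik (ENSMUSG00000055403, chr6:88950683-89110031, plus strand) had 140.4, 98.2 and 119.2 CPM in control and 309.7, 181 and 315 CPM in cKO libraries. Its log2FC of 1.16 (SE 0.24, adjusted p = 0.0030) passed in all 19 alternative fits. Gm12031 (ENSMUSG00000085035, chr11:20145567-20146344, minus strand) had 90.1, 121.3 and 122.6 CPM in control and 33.2, 19.996 and 27.8 CPM in cKO libraries. Its log2FC of −2.07 (SE 0.32, adjusted p = 0.00036) also passed in all 19, which made it the firmest lower call. Gm29107 (ENSMUSG00000100775, chr1:23293729-23294075) had 26.7, 19.4 and 30.2 CPM against 62.3, 51.8 and 58.7 CPM. Its log2FC of 1.17 (SE 0.36, adjusted p = 0.037) was lost in 10 of 19 alternative fits, and the transcript is only 25.6% GC. 2810013P06Rik (ENSMUSG00000099881, chr8:123042466-123044602) had 11.4, 22.6 and 23.0 CPM against 5.66, 3.92 and 3.09 CPM. Its log2FC of −2.13 (SE 0.68, adjusted p = 0.045) was lost in 12 of 18 alternative fits, and it too entered the 100 genes through control, with 99 reads there and 19 in cKO libraries.

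**Figure D4:**
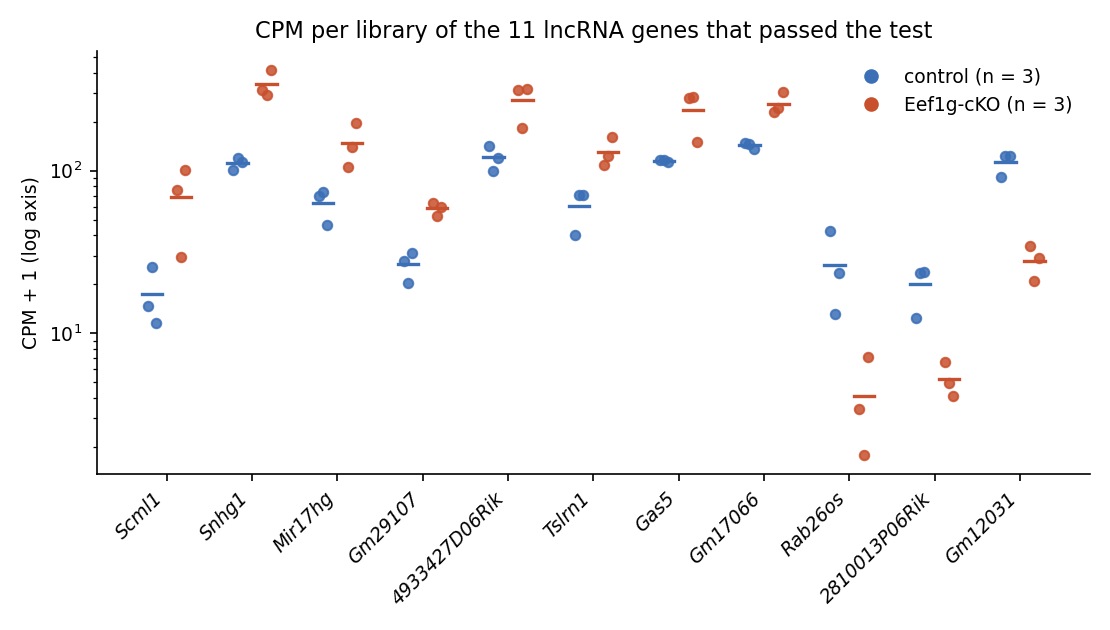
CPM + 1 (log axis) per library of the 11 genes that passed the test, higher genes first and then lower genes, each ordered by the size of the change. Points are libraries (3 control, blue, and 3 Eef1g-cKO, red) and bars are group means. No group pair overlaps, and the gap is narrowest for Scml1, where 24.7 CPM in control stands beside 28.2 CPM in Eef1g-cKO.

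How far these values belong to the noncoding gene depends on its surroundings. By position, 41 of the 100 genes were intergenic, 33 overlapped a coding gene on the opposite strand and 8 on the same strand. Another 18 overlapped none but started within 1000 bases of an oppositely directed protein-coding gene (divergent). Overlap was assigned first, so the 33 include genes that also start that close to their partner. One of them is Gas5, 427 bases from Zbtb37. Exon bases were shared with a coding gene in 32 genes, and over 50% of them in 2 (Gm26870 with 54.6% and Gm26787 with 53.3%). Among intergenic genes 5 were higher and 1 lower of 40 tested (12.5% and 2.5%), and among divergent genes 1 and 0 of 18 (5.56% and 0%). Opposite-strand overlaps gave 1 and 1 of 33 (3.03% each), and same-strand overlaps 1 and 1 of 8 (12.5% each). Of all tested genes 7.8% were higher and 6.01% lower. With so few genes called per class, nothing is read from the differences between classes.

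Of 47 pairs in which both the lncRNA gene and its coding neighbour were tested, 26 had log2FC values of the same sign and 21 of opposite signs. In 1 pair both genes passed: Gas5 and Zbtb37, a zinc finger gene, start 427 bases apart on opposite strands and share no exon bases, and Zbtb37 rose from 32.1 ± 7.97 to 71.3 ± 12.0 CPM (SD, n = 3; log2FC 1.15, SE 0.34, adjusted p = 0.028 by edgeR). Snhg1 and Slc3a2, the heavy chain of amino acid transporters, start 106 bases apart, and Slc3a2 did not pass. Slc3a2 had 52.2 ± 12.0 CPM in control and 52.8 ± 5.29 CPM in cKO libraries (log2FC 0.01, SE 0.33, adjusted p = 0.98 by edgeR). Cep83os, divergent to the centriole gene Cep83 at 78 bases, had a log2FC of 0.82 (SE 0.28, adjusted p = 0.060), while Cep83 rose with 0.96 (SE 0.16, adjusted p = 0.00052). Rab26, which contains Rab26os on the opposite strand, had 1.84 CPM in control and no reads in Eef1g-cKO libraries and was not tested.

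Gm17066 (ENSMUSG00000091509, chr14:105109390-105114676, minus strand) lies inside Rbm26 on the same strand and shares 37.1% of its exon bases with it. It had 147, 144 and 135 CPM in control and 227, 243 and 301 CPM in cKO libraries (log2FC 0.85, SE 0.20, adjusted p = 0.0077). Rbm26, which encodes an RNA-binding protein, had 160.1 ± 17.4 and 239.6 ± 18.3 CPM (log2FC 0.59, SE 0.19, adjusted p = 0.051 by edgeR). Reads on the shared bases cannot be assigned to one of them. The call of Gm17066 was lost with the GC correction, where the value was 0.33.

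**Figure D5:**
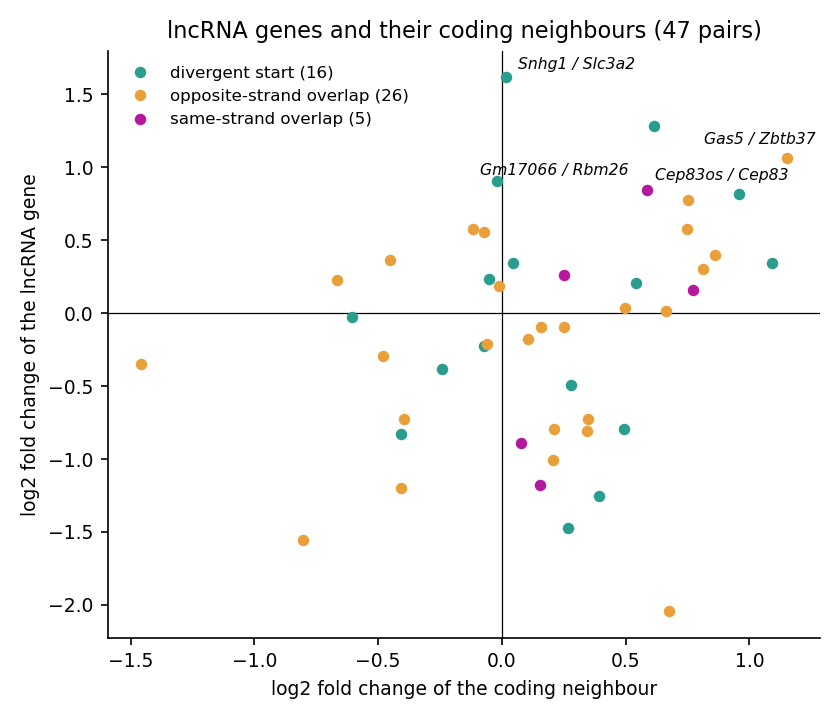
Log2 fold change of the lncRNA gene (vertical axis) against that of its coding neighbour (horizontal axis) for the 47 pairs in which both were tested, coloured by position class with the number of pairs in brackets. Points spread over all 4 quadrants, with Gas5 and Zbtb37 at the upper right and Snhg1 beside Slc3a2 near 0.

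Some of the most abundant entries are not noncoding in every annotation. RefSeq matched 83 of the 100 genes by name and position. It gave lncRNA for 67, protein_coding for 13 and a pseudogene class for 3. The 13 included Cct6a, a subunit of the cytosolic chaperonin, Ndufb1-ps, listed there as the respiratory chain gene Ndufb1, and Zswim6. D930016D06Rik, listed there as Thoc2l, was also among the 13. Cct6a had 362 to 431 CPM in control and 434 to 488 CPM in cKO libraries, which did not overlap (log2FC 0.23, SE 0.16, adjusted p = 0.38). Ndufb1-ps had a log2FC of −0.09 (adjusted p = 0.78) and Zswim6 of −0.33 (adjusted p = 0.44). Scml1 was the only one of the 13 to pass. Without these 13, 7 genes were higher and 3 lower of 86 tested (8.14% and 3.49%), and the median log2FC was −0.02. Among all tested genes 7.8% were higher and 6.01% lower, so the higher share was near the background.

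The remaining genes of high rank did not pass. 1700020I14Rik, listed in RefSeq as Oip5os1 and known for an extended pairing site for miR-7, had 219 to 276 CPM in control and 141 to 274 CPM in cKO libraries (log2FC −0.23, adjusted p = 0.54). 1700001L05Rik stood at 0.42 (adjusted p = 0.19) and Gt(ROSA)26Sor, the ubiquitously transcribed locus used for transgene insertion, at −0.21 (adjusted p = 0.74). D930016D06Rik, protein_coding in RefSeq, stood at 0.28 (adjusted p = 0.53). Gm26917, on the list of loci known to collect ribosomal RNA reads, had 25.2, 16.3 and 20.2 CPM in control and 31.5, 75.3 and 37.1 CPM in cKO libraries. These values did not overlap, and the log2FC of 1.26 (SE 0.43) had an adjusted p of 0.060. Gm26870 was placed on the same list, but whether it collects ribosomal RNA reads was not checked. It overlaps 9 coding gene models on the opposite strand and had 0.57 (adjusted p = 0.51), so its reads are uncertain. CT025671.1 was the gene that failed the filter: 276 of its 279 reads were in control replicate 2, so it entered the 100 genes through 1 library.

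At the limit of the selection, Gm20337 and Tmem134 (ranks 99 and 100) had 116 and 115 reads, and the next genes, Snhg4 and AV099323, had 115 and 113 reads. Per library, Gm20337 had 7, 11 and 19 reads in control and 38, 36 and 5 in Eef1g-cKO, and Snhg4 had 33, 29 and 42 in control and 4, 7 and 0 in Eef1g-cKO. The order at the limit therefore rests on a tie broken by gene identifier.

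Summed marker levels did not overlap between the genotypes for any cell type listed except blood cells and macrophages. Summed over 12 markers of L/Z spermatocytes such as Sycp1 and Dmc1, the level was 10570 to 11803 CPM in control and 21619 to 28658 CPM in cKO libraries. All 12 had reads. Markers of spermatogonia (12 of 12 with a read) summed to 1517 to 1746 CPM in control and 705 to 844 CPM in Eef1g-cKO, those of Sertoli cells (11 of 11) to 309.9 to 848 and 114 to 133 CPM, and those of peritubular and stromal cells (8 of 8) to 217 to 360.3 and 18.5 to 80.4 CPM. Markers of pachytene and later cells (9 of 11, Acr and Acrv1 at 0) summed to 48.3 to 56.5 and 4.63 to 30.7 CPM, those of Leydig cells (3 of 5, Cyp17a1 and Hsd3b1 at 0) to 8.40 to 10.7 and 1.57 to 6.47 CPM, and those of blood cells and macrophages (7 of 9, Cd68 and Csf1r at 0) to 7.84 to 104.6 and 4.04 to 100.4 CPM. The part of these markers in the changes of Rab26os, Gm12031, 2810013P06Rik and the higher genes was not tested. In such bulk libraries fewer cells of a type and less RNA per cell cannot be told apart.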

How the data were processed

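Polyadenylated RNA of sorted L/Z spermatocytes was measured in 3 control and 3 Eef1g-cKO libraries. According to the labels and the study's methods, the authors trimmed reads with fastp, aligned them to the mouse genome (GRCm38, labelled mm10) with HISAT2, and counted them per Ensembl gene with featureCounts; the deposited values are raw counts, neither normalised nor pooled. The labels also name DESeq2. The strand setting and the treatment of reads with several alignments are not given in the sources used here. The genes and gene lists were chosen with earlier results of these data known.

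Here, genes were filtered with filterByExpr (minimum count 10, minimum total 15), which left 8513 genes, scaled by TMM, and tested with edgeR 4.0.16 (R 4.3.3; robust quasi-likelihood, genotype only, Benjamini-Hochberg adjustment). SE was taken as |log2FC| over √F. CPM used TMM-scaled library sizes. Positions came from the count table, exons and snoRNA genes from GENCODE M21, and start windows, microRNAs and second biotypes from RefSeq (GRCm38.p6). GC content was that of the longest GENCODE transcript, known for 8508 tested genes. Named were the 12 genes with most reads, in each direction up to 8 genes that passed, members of the lists, the 2 genes on each side of the selection limit, coding neighbours and Eef1g; other genes (near misses, X-linked genes, CT025671.1, Gm10076, Gm26787, 2810001G20Rik, Cep83os with Cep83 and genes that contain a snoRNA) were named after their values had been seen. The fit was tested on simulated counts. Alternatives were limma-voom, limma 3.58.1, DESeq2 1.42.0, other scalings and filters, offsets and omission of each library.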

Additional observations from a re-analysis of the deposited data

How the results depend on the processing

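The genes that passed numbered 11, and 6 to 11 of them passed in each of the 19 alternative fits, with none in the opposite direction. Snhg1, Gas5, 4933427D06Rik and Gm12031 passed in all. The lower genes numbered 6 with limma-voom, 5 when lncRNA genes were ranked by reads per kilobase, and 1 when genes that overlap a coding gene were left out. The ranking and overlap counts come from the main fit, where 6.01% of all tested genes were lower. For the alternative fits the share of all genes called is not given. Counts of called genes in this section are therefore not read against a background. The GC correction, chosen after seeing the data, left 5 higher genes and a median log2 fold change of −0.11, and scaling by library totals alone gave a median of −0.17. Scaling by library totals, upper quartiles or without the count filter moved the median of all genes to −0.24, −0.17 and −0.30. Leaving out 1 library gave 5 to 10 higher genes, 1 to 3 lower genes and medians from −0.07 to 0.08. For these results the cause was not tested.

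Eef1g stayed lower, but no longer passed without the filter (−0.64, adjusted p = 0.084), with the replicate block (−0.69, adjusted p = 0.059), with the block and a length offset (−0.65, adjusted p = 0.071), with the GC correction (−0.49, adjusted p = 0.12), and without any one of control replicates 1, 2 and 3 or cKO replicate 1 (−0.75 to −0.56 over all omissions). Deviations of same-numbered libraries correlated between −0.05 and 0.02 across genes, so no shared deviation by number was seen. This does not exclude that same-numbered libraries were paired. The replicate block gave 7 higher and 2 lower genes, and 9 of the 11 calls were shared. The depth of Eef1g-cKO replicate 3, with a floor of 4.63 CPM, limits what can be said of genes under about 20 CPM.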
